A study of Mus musculus with 23 samples.

Results

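A100-FMT was compared with Con-FMT in set 2, the second set of libraries by the codes of the series, with 3 libraries in each group. These 6 libraries, out of 23 in all, were picked by the treatment and set codes in their names. The comparison itself, and the gene lists used below, were chosen with earlier results of these data known. The recipients were male mice of ICR, an outbred strain, and all of them, controls included, had been given busulfan at 40 mg/kg as a single dose at 3 weeks of age. Busulfan is an alkylating drug that damages dividing cells such as those of the intestinal crypts, so neither group shows an untreated intestine. Afterwards the mice received fecal microbiota transplantation (FMT), here a dilution of the pooled contents of the small intestine of donor mice. The donors of the Con-FMT group had been dosed with vehicle (0 mg/kg) and those of the A100-FMT group with alginate oligosaccharides (AOS), short sugar chains made from the alginate of brown algae, at 100 mg/kg. Because the donor material was pooled within a group, the mice of a group shared 1 source of microbes. Set 2 also held the groups A10-FMT, whose donors had been dosed with less AOS, and Sa, whose mice received saline in place of FMT. Both of these groups had been given the same dose of busulfan at the same age. The study's methods describe daily transplants for a week and a further week before the tissue was taken, and do not say whether that schedule covers both sets. In addition, the code of the Con-FMT libraries carries a letter that the code of the A100-FMT libraries lacks and that no source explains.

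The question of the comparison was whether donors that had been fed AOS gave the recipients a small intestine with other gene expression than donors that had not. The lining of the small intestine is a single sheet of epithelium that is renewed from stem cells in the crypts. Most of its cells are enterocytes, which carry a brush border of microvilli with digestive enzymes and transporters, and among them lie goblet, Paneth and enteroendocrine cells and lymphocytes. Microbes in the lumen are known to act on this tissue in several ways, and one of them is a low tonic interferon response, in which interferon binds its receptors and antiviral genes are turned on.

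Expression was measured as FPKM (fragments scaled by the length of the transcript and by the mapped reads of the library), which lets values of different genes be set side by side. The number of reads behind the values is not known. Among the 6 libraries the Pearson correlation of log2(FPKM + 1) across genes was 0.98 to 0.989, within groups as well as between them, and no library stood apart. Between 14.9% and 16.4% of the entries were at 0 FPKM in a library. Epithelial genes were high, with Vil1, the villin of microvilli, at 592 to 741 FPKM. The 11 marker genes of enteric neurons and glia together reached at most 0.99 FPKM. The summed level of 14 smooth muscle markers was 277.5 to 289.5 FPKM over both groups, but only 6 of them reached the level required for testing. Of the others, Actg2 and Des were at 0 FPKM in every A100-FMT library and Cnn1 in every Con-FMT library, so the sum does not measure muscle content. The 7 erythroid markers summed to 40.4 FPKM in Con-FMT replicate 1 and to 4.53 to 9.80 FPKM in the other 5 libraries. In bulk tissue such as this, fewer cells of a type cannot be told apart from less RNA per cell. Differences were tested with limma on log2(FPKM + 1) over all 12 libraries of set 2, with the Benjamini-Hochberg adjustment over 11351 genes. Each log2 difference and its standard error (SE) is on that scale, which understates changes of genes of low level. Percentages were calculated from the log2 differences, so they are changes of FPKM + 1 and understate the change of FPKM in the same way. The labels number the libraries of a group without stating that each came from a separate mouse, so p-values measure the spread between these libraries only, and each is called a mouse here.

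Few genes passed the adjusted test, and those that did differed by little. After A100-FMT, 48 genes rose (0.423% of those tested) and 34 fell (0.3%), at an adjusted p of 0.05, while 1622 higher and 690 lower genes had an unadjusted p under 0.05. In every one of these 82 genes the 3 values of one group lay above the 3 values of the other. Without regard to the test, 16.1% of the tested genes were higher in all 3 A100-FMT libraries than in all 3 Con-FMT libraries and 6.5% were lower in all 3. The absolute log2 difference of the genes that passed ran from 0.19 to 0.76, none reached 2-fold, and the smallest adjusted p was 0.0269. Among all tested genes 64.4% were higher after A100-FMT and the median log2 difference was 0.04, so the split by direction hangs on how the libraries are scaled. With quantile normalization 24 genes rose and 43 fell, with trimmed-mean scaling 13 rose and 33 fell, and with GC content and length taken into account 31 rose and 59 fell.

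**Figure D1:**
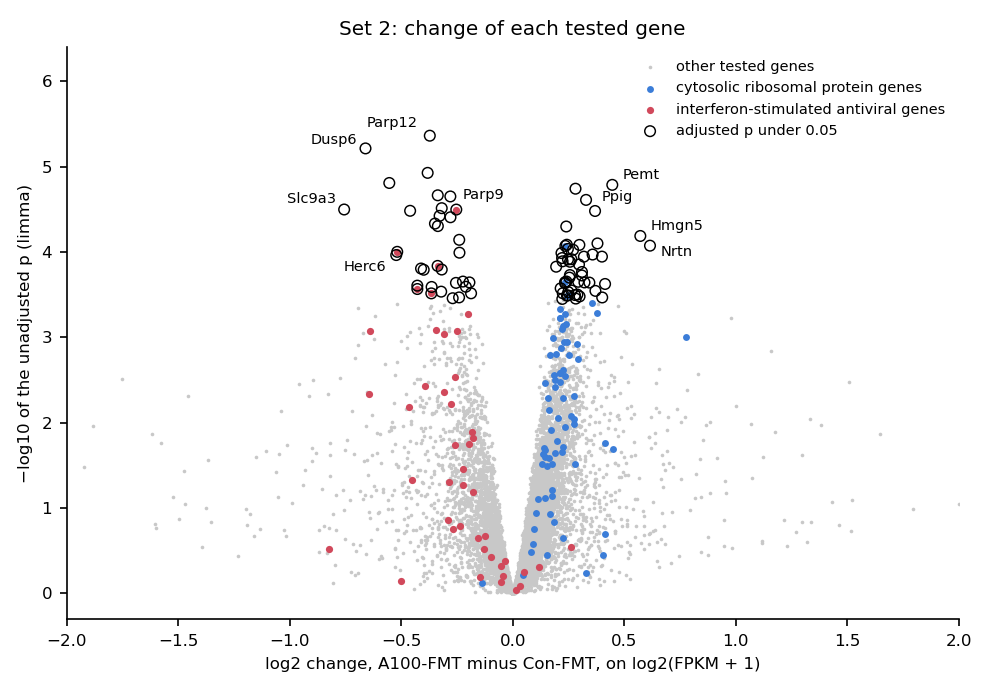
Each point is 1 of the genes tested in set 2, placed by its log2 difference between A100-FMT and Con-FMT on log2(FPKM + 1) (x axis) and by −log10 of its unadjusted p from limma (y axis). Rings mark the 82 genes with an adjusted p under 0.05, blue points ribosomal protein genes and red points interferon-stimulated antiviral genes, and 15 genes with a difference beyond 2 lie outside the axis. The red points lie mostly left of 0 and the blue points mostly right of it.

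The number of genes that passed depended on single libraries. With limma it was 0 without Con-FMT replicate 2, where 953 higher and 471 lower genes had an unadjusted p under 0.05, and 0 if A100-FMT replicate 2 was left out (1469 and 618), whereas 2 rose and 4 fell without Con-FMT replicate 3, 1 rose and 1 fell without A100-FMT replicate 3, and 115 rose and 85 fell without Con-FMT replicate 1. No gene passed in a fit of the 6 libraries alone (1244 and 587 at an unadjusted p under 0.05) or of all 23 (822 and 448). Each of the 82 genes kept its direction in all alternatives in which it was tested. For most alternatives this was fixed beforehand, because the values of these genes did not overlap. Only the other scalings and the adjustment for GC content and length could have changed a direction.

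The largest fall among the genes that passed was that of Slc9a3. It encodes NHE3, the sodium-proton exchanger of the brush border through which the intestine takes up most of its sodium (GRCm38, chr13:74086255-74169442). Its level was 81.5, 94.4 and 80.2 FPKM in Con-FMT replicates 1 to 3 and 47.6, 58.4 and 45.1 FPKM in A100-FMT. Every A100-FMT mouse lay far below every Con-FMT mouse, and Slc9a3 fell by 40.8% (log2 difference -0.76, SE 0.11, limma adjusted p = 0.0269). Slc9a2, a related exchanger, stood at 41.9, 41.97 and 42.4 FPKM in Con-FMT and 37.6, 34.9 and 33.02 FPKM in A100-FMT. Atp1b1, the beta subunit of the sodium pump, had 548, 589 and 537 FPKM in Con-FMT and 476, 465 and 474 FPKM in A100-FMT. Both fell without overlap, Slc9a2 by 16.2% and Atp1b1 by 15.3% (limma adjusted p = 0.0448 and 0.0491). These 3 were the members that passed among 26 tested epithelial ion transporters, while 0.3% of all tested genes fell at this threshold. Of the 26, 18 were lower and 8 higher with a median log2 difference of -0.08.

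Dusp6, a phosphatase that is induced by ERK signalling and switches ERK off, was at 17.4, 15.8 and 14.9 FPKM in Con-FMT and 9.30, 9.68 and 10.4 FPKM in A100-FMT. Slco2a1, a prostaglandin transporter, was at 12.3, 15.03 and 13.6 FPKM in Con-FMT and 8.95, 9.35 and 8.59 FPKM in A100-FMT. Dusp6 fell by 36.7% and Slco2a1 by 31.8%, with an adjusted p of 0.0269 for both in limma. The A10-FMT group, whose donors had received less AOS, lay beside A100-FMT for both genes, with means of 8.98 and 8.56 FPKM. Sa, the group given busulfan and saline, had means of 13.2 and 10.6 FPKM. Pla2g2f, a secreted phospholipase A2, dropped by 27.3% from 6.21, 5.29 and 5.37 FPKM to 4.04, 3.63 and 3.76 FPKM (limma adjusted p = 0.0269). Emp1, an epithelial membrane protein, and Tmem236, a gene of another membrane protein, fell by 24.8% and 24.1% (limma adjusted p = 0.0399 for both). Heph, the ferroxidase hephaestin that passes iron from the enterocyte to the blood, decreased from 38.4, 43.3 and 40.8 to 33.4, 29.9 and 31.2 FPKM, which was 22.3% (limma adjusted p = 0.0463). It was the member that passed among 11 tested genes of iron absorption and storage, of which 6 were lower. Of all tested genes 0.3% fell at this threshold.

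Interferon-stimulated antiviral genes were lower after A100-FMT as a group. Of 44 tested members 39 were lower, 24 of them (54.5%, against 6.5% of all tested genes) in all 3 A100-FMT libraries, and the median log2 difference was -0.24 beside 0.04 over all genes. Parp9, Parp14, Herc6, Rnf213 and Trim30a fell at the adjusted threshold and no member rose. Parp9, which forms a complex that amplifies interferon signalling, was at 74.8, 72.7 and 69.05 FPKM in Con-FMT and 59.9, 60.6 and 60.7 FPKM in A100-FMT. Parp14, a mono-ADP-ribosyltransferase, was at 53.1, 53.2 and 52.3 FPKM in Con-FMT and 39.6, 39.6 and 46.1 FPKM in A100-FMT. The groups were well separated for both, and the levels had fallen by 16.1% and 20.8% (limma adjusted p = 0.0269 and 0.0393). Herc6, the ligase that attaches ISG15 to proteins in the mouse, had 18.9, 21.3 and 17.6 FPKM in Con-FMT and 12.4, 14.1 and 13.00 FPKM in A100-FMT, a drop by 30.1% (limma adjusted p = 0.0366). Rnf213, a large ubiquitin ligase with antimicrobial activity, had 73.9, 68.4 and 68.8 FPKM in Con-FMT and 53.5, 49.3 and 53.3 FPKM in A100-FMT. Trim30a, a regulator of innate signalling, had 39.1, 41.2 and 41.9 FPKM in Con-FMT and 29.96, 29.8 and 34.7 FPKM in A100-FMT. Rnf213 and Trim30a fell by 25.6% and 22.3% (limma adjusted p = 0.0475 and 0.0482).

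Further genes of the same response passed or came near. Ddx60, an RNA helicase of antiviral sensing that was not on the list, decreased by 30.4%, from 40.7, 47.5 and 40.9 FPKM in Con-FMT to 29.02, 29.3 and 30.5 FPKM in A100-FMT (limma adjusted p = 0.0366). Parp12, another interferon-induced ADP-ribosyltransferase, picked for the text after its values were seen, dropped by 22.7% from 72.6, 74.4 and 70.7 to 54.5, 57.3 and 55.8 FPKM (limma adjusted p = 0.0269). Ifit2, which binds viral RNA and had one of the larger differences on the list, stood at 46.1, 34.4 and 31.5 FPKM in Con-FMT and 18.9, 23.99 and 27.8 FPKM in A100-FMT. Its values did not overlap, yet with a log2 difference of -0.64 (SE 0.18) it missed the threshold (limma adjusted p = 0.0996). The most abundant members, Ifitm3, which restricts virus entry, and Lgals3bp, a secreted glycoprotein, were lower in all 3 A100-FMT libraries too, with log2 differences of -0.22 and -0.20 (limma adjusted p = 0.253 and 0.16). Ifi27l2b, at 474, 599.8 and 86.4 FPKM in Con-FMT and 94.2, 369 and 127 in A100-FMT, varied more within the groups than between them.

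Con-FMT had the highest level of these genes among the 4 groups of set 2. For 39 of the 44 members the Con-FMT mean was the highest of the means of A100-FMT, A10-FMT, Con-FMT and Sa, which was so for 13.9% of all tested genes. The summed level of the 46 members in the table was 4450, 4590 and 4154 FPKM in Con-FMT replicates 1 to 3, 3272, 3907 and 3651 FPKM in A100-FMT, 3053 to 4101 FPKM in A10-FMT and 3218 to 3436 FPKM in Sa. Con-FMT was thus above every library of the other groups. Ddx60, for instance, had a mean of 43.04 FPKM in Con-FMT, 29.6 in A100-FMT, 28.9 in A10-FMT and 32.6 in Sa.

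**Figure D2:**
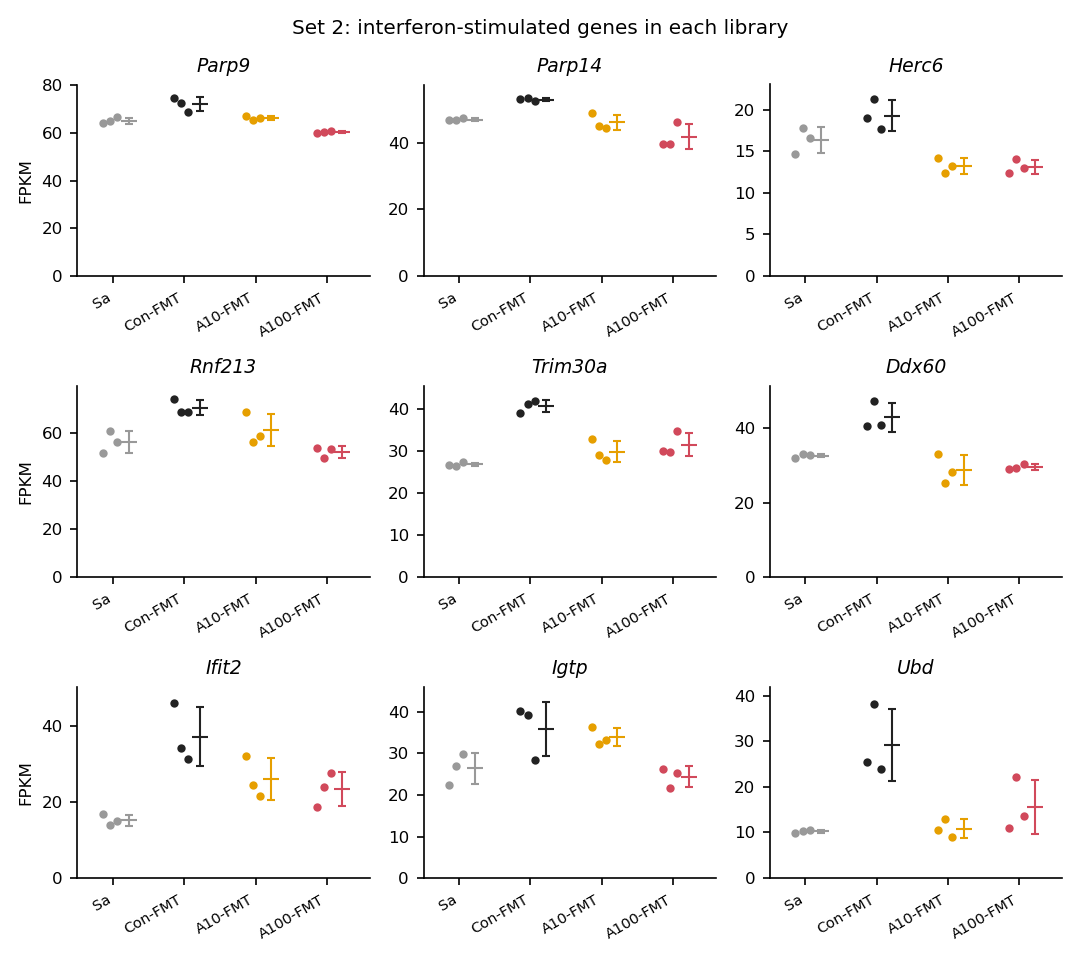
FPKM of 9 interferon-stimulated genes (y axes, from 0) in the 4 groups of set 2; points are single libraries, and the dash with its bar gives the mean and SD of 3 libraries. In each panel the 3 Con-FMT points lie above the 3 A100-FMT points, and the A100-FMT points lie at a height similar to that of Sa or A10-FMT in most panels.

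Many genes that interferon turns on carry a short response element in their promoters, whose core is a pair of GAAA half-sites with any 2 bases between them. The promoters of Ddx60, which passed, of Trim30a, which passed and is on the list, and of Igtp, a GTPase described further on, are shown because they belong to genes of this response and hold the element (RefSeq, GRCm38.p6, 250 bases before to 50 bases after the start of the gene). They lie at chr8:61927837-61928136 on the plus strand, chr7:104465144-104465443 on the minus strand, which is 1 of the starts listed for that gene, and chr11:58199306-58199605 on the plus strand. Capitals mark each match to the element on either strand, where a pair of TTTC half-sites is the same element read on the other strand.
Ddx60: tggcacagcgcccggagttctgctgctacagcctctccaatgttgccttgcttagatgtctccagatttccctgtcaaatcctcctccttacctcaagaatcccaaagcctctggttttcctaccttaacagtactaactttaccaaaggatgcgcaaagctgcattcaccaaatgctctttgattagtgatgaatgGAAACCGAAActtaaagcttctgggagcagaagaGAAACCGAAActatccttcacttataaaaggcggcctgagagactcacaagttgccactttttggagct
Trim30a: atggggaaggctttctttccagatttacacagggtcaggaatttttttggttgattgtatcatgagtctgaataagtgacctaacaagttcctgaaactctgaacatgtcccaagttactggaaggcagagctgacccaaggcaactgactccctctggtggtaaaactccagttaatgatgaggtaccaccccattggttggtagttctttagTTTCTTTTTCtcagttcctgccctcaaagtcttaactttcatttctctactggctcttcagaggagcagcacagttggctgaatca
Igtp: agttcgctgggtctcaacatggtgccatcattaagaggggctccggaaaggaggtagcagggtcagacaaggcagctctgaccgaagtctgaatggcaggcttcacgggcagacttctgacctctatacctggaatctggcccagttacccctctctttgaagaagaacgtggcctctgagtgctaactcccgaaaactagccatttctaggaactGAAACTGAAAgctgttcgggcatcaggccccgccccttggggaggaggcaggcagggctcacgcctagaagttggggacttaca
Of the 8613 tested genes with a promoter in the reference table, 3.83% held the element in these 300 bases on one of the strands, where matches may overlap. It was found in 17 of 34 promoters of interferon-stimulated antiviral genes and in 8 of 9 promoters of interferon-inducible GTPases, and in 2 of 27 genes that fell (Ddx60 and Trim30a) and 2 of 42 that rose (Rpl4 and Wdr31). Within the antiviral list the median log2 difference was -0.22 for the 17 genes with the element and -0.22 for the 17 without it. A match is a match of letters and is not evidence of binding.

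Interferon-inducible GTPases, which attack the vacuoles of intracellular microbes, were lower in 14 of 15 tested genes, with a median log2 difference of -0.41, and in 7 of them (46.7%, against 6.5% of all tested genes) the groups did not overlap. None passed the threshold in limma, although 11 had an unadjusted p under 0.05. Igtp was at 40.2, 39.2 and 28.5 FPKM in Con-FMT and 26.4, 21.7 and 25.2 FPKM in A100-FMT. Irgm1, the most abundant of the family, was at 131, 116 and 108 FPKM in Con-FMT and 91.2, 94.2 and 100.2 FPKM in A100-FMT. Iigp1 was at 12.3, 7.44 and 5.62 FPKM in Con-FMT and 4.52, 3.60 and 4.26 FPKM in A100-FMT. In all 3 genes the highest A100-FMT mouse was below the lowest Con-FMT mouse, and the adjusted p was 0.0823, 0.0676 and 0.0996 in limma. The mean of Con-FMT was the highest of the 4 groups of set 2 for 14 of the 15. Without Con-FMT replicate 1, in which Iigp1 was highest, the median of the list was -0.23.

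Genes of antigen presentation were lower to a smaller degree and none passed. Ubd, the interferon-induced ubiquitin-like protein FAT10, was at 25.4, 38.1 and 23.9 FPKM in Con-FMT and 10.9, 22.2 and 13.6 FPKM in A100-FMT (limma adjusted p = 0.0853). B2m, the light chain of MHC class I, was at 1499.9, 1520.0 and 1508 FPKM in Con-FMT and 1303, 1290.3 and 1103 FPKM in A100-FMT (limma adjusted p = 0.0755). For both, every A100-FMT value was below every Con-FMT value. Of 15 tested genes of ubiquitin D, the immunoproteasome and peptide loading 10 were lower (median log2 difference -0.10), of 14 MHC class I genes 12 (median -0.14) and of 8 MHC class II genes 7 (median -0.20), and 4, 3 and 3 of them (26.7%, 21.4% and 37.5%, against 6.5% of all tested genes) were lower without overlap, while 1 gene of the first list and 1 of the second were higher without overlap (5, 2 and 3 lower genes had an unadjusted p under 0.05 in limma, and 1 higher gene of the first list). H2-Q1, a nonclassical class I gene, had 42.1, 60.01 and 52.8 FPKM in Con-FMT and 35.8, 30.5 and 32.95 FPKM in A100-FMT (limma adjusted p = 0.0555). H2-DMb1, a chaperone of class II loading, had 6.26, 24.3 and 10.6 FPKM in Con-FMT and 1.09, 1.03 and 0.85 FPKM in A100-FMT (log2 difference -2.69, limma adjusted p = 0.0574), while Cd74, the invariant chain of class II and the most abundant gene of its list, overlapped between the groups. MHC genes have near-identical copies whose reads the counting may have divided, and their single values are uncertain for that reason. Schlafen genes, another interferon-induced family, were lower in 4 of 5 tested members (median -0.24), with Slfn4 at 12.5, 11.1 and 18.4 FPKM in Con-FMT and 5.36, 9.39 and 11.2 FPKM in A100-FMT.

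Markers of T cells and cytotoxic lymphocytes moved in the same direction but not in all mice. All 8 tested members were lower after A100-FMT, with a median log2 difference of -0.70, yet in none were the groups apart and none passed in limma (2 with an unadjusted p under 0.05). Gzma, a granzyme of intraepithelial lymphocytes, was at 42.1, 94.8 and 128 FPKM in Con-FMT and 49.3, 19.6 and 56.00 FPKM in A100-FMT. Gzmb, the granzyme that triggers death of target cells, was at 21.4, 46.5 and 56.2 FPKM in Con-FMT and 25.4, 9.99 and 22.9 FPKM in A100-FMT. Ccl5, a chemokine of these lymphocytes, was at 12.2, 37.9 and 59.2 FPKM in Con-FMT and 26.3, 8.07 and 22.9 FPKM in A100-FMT. Con-FMT replicates 2 and 3 were high for all 3 genes, and Con-FMT replicate 1 lay within the range of the A100-FMT mice. The 30 markers in the table summed to 83.8, 190.5 and 251.7 FPKM in Con-FMT and to 106.6, 44.7 and 108.2 FPKM in A100-FMT. Of the 21 myeloid markers only 4 were tested, and their summed level was 74.5 to 85.7 FPKM in Con-FMT and 59.5 to 70.7 FPKM in A100-FMT, without overlap. The part of these cells in the interferon result was not tested.

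Microbe-responsive defence genes of the epithelium were lower in 17 of 20 tested members (median log2 difference -0.16), in 4 without overlap (20%, against 6.5% of all tested genes), and none passed (4 with an unadjusted p under 0.05 in limma). Reg3b, a C-type lectin that kills bacteria and one of the most abundant transcripts, was at 13433, 12950.0 and 8289.5 FPKM in Con-FMT and 6384, 12096 and 8680.4 FPKM in A100-FMT. Reg3g, its close relative, was at 11518, 11529 and 7559 FPKM in Con-FMT and 6126, 10524 and 7757 FPKM in A100-FMT. The ranges of the groups overlapped widely for both. Ido1, which degrades tryptophan and is induced by interferon, was at 13.1, 19.3 and 15.02 FPKM in Con-FMT and 10.4, 8.43 and 9.78 FPKM in A100-FMT and did not overlap (limma adjusted p = 0.134). Fut2, the fucosyltransferase that decorates the epithelial surface for commensals, was at 42.02, 37.3 and 19.5 FPKM in Con-FMT and 11.4, 32.4 and 12.7 FPKM in A100-FMT, and its highest A100-FMT mouse lay within the Con-FMT range.

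Paneth cell genes, whose products kill bacteria at the crypt base, were lower in 16 of 18 tested members, with a median log2 difference of -0.31 and 6 genes without overlap (33.3%, against 6.5% of all tested genes), and none passed (5 with an unadjusted p under 0.05 in limma). Lyz1, the Paneth cell lysozyme, was at 2429, 2367 and 2795 FPKM in Con-FMT and 2556, 1702 and 1433 FPKM in A100-FMT. Mmp7, the protease that activates defensins, was at 153, 124 and 157 FPKM in Con-FMT and 119, 70.2 and 63.9 FPKM in A100-FMT. Mptx2, a mucosal pentraxin of Paneth cells, was at 459, 379 and 726 FPKM in Con-FMT and 378, 274 and 122 FPKM in A100-FMT. A100-FMT replicate 1 was close to the Con-FMT mice for all 3 genes, and replicates 2 and 3 were low, so the spread was large (limma adjusted p = 0.367, 0.159 and 0.174). Unlike the interferon genes, this list was not highest in Con-FMT: its mean was the highest of the 4 groups for 2 of 18 genes, and the summed level reached 28840.0 FPKM in an A10-FMT library against 14960.0 to 18740.0 FPKM in Con-FMT and 11480.0 to 14550.0 FPKM in A100-FMT. Defensin genes are near-identical copies and their separate values are uncertain.

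Most genes of the enterocyte brush border, of nutrient uptake and of the villus tip were lower after A100-FMT, by a modest amount. Among the disaccharidases and peptidases 16 of 18 tested genes were lower (median log2 difference -0.25), among amino acid and peptide transporters 15 of 17 (median -0.17), among genes of fat uptake and chylomicron assembly 26 of 30 (median -0.13), among genes of microvillus structure 16 of 19 (median -0.10) and among purine and nucleoside genes of the villus tip 9 of 12 (median -0.17). In 6, 6, 7, 6 and 6 of them (33.3%, 35.3%, 23.3%, 31.6% and 50%, against 6.5% of all tested genes) the groups did not overlap on the lower side, and in none on the higher side (16.1% of all tested genes). Of all these genes Apob alone passed. Apob, the scaffold protein of chylomicrons, fell by 25.6%, from 104, 126 and 118 FPKM in Con-FMT to 92.8, 85.5 and 79.1 FPKM in A100-FMT (log2 difference -0.43, SE 0.08, limma adjusted p = 0.0462). The highest A100-FMT mouse was below the lowest Con-FMT mouse. Anpep, the aminopeptidase N of the brush border, was at 1553, 1874 and 1647 FPKM in Con-FMT and 1332, 1334 and 1246 FPKM in A100-FMT. Enpep, the glutamyl aminopeptidase, was at 239, 279.9 and 241 FPKM in Con-FMT and 203, 185 and 203 FPKM in A100-FMT. Xdh, the xanthine oxidoreductase, was at 196, 253 and 201 FPKM in Con-FMT and 157, 159.8 and 165 FPKM in A100-FMT. Each of the 3 was lower in all A100-FMT libraries and lay just short of the threshold (limma adjusted p = 0.0574, 0.0541 and 0.0574). The 3 tested intestinal alkaline phosphatases did not move together, with log2 differences of -0.52 to 0.33. Of these, 2 were lower and 1 was higher, the latter without overlap (33.3%, against 16.1% of all tested genes), and none passed.

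Single genes of microvillus structure and of sugar transport were lower in the same way. Vil1 was at 640.3, 721 and 741 FPKM in Con-FMT and 606, 592 and 593 FPKM in A100-FMT. The study reported increased Vil1 protein after A100-FMT, by immunofluorescence, whereas these values are of RNA. Cdhr2, a protocadherin that links the tips of microvilli, was at 188, 219.8 and 217 FPKM in Con-FMT and 164, 174 and 167 FPKM in A100-FMT. Slc5a1, the sodium-glucose transporter SGLT1, was at 141, 179 and 184 FPKM in Con-FMT and 129, 126 and 136 FPKM in A100-FMT. All 3 were lower without overlap and did not pass (limma adjusted p = 0.0706, 0.0751 and 0.0869), and the A100-FMT mice were close to each other while Con-FMT replicate 1 was the lowest of its group. The list of sugar transport and fructose metabolism that holds Slc5a1 was divided as a whole. Of its 13 tested genes 7 were higher and 6 lower, with a median log2 difference of 0.01. In 2 of them (15.4%, against 6.5% of all tested genes) the groups did not overlap on the lower side. Slc15a1, the peptide transporter PEPT1, and Slc6a19, the neutral amino acid transporter, had log2 differences of -0.41 and -0.41 (limma adjusted p = 0.102 and 0.105). The most abundant genes of fat uptake did not follow: Apoa1, the main apolipoprotein of chylomicrons by level here, was at 2031, 2414 and 2764 FPKM in Con-FMT and 2073, 2824 and 2532 FPKM in A100-FMT, and Fabp1, the liver-type fatty acid binding protein, at 895, 1199 and 1120.0 FPKM and 982, 1127 and 1062 FPKM. Their 95% intervals of the log2 difference, -0.39 to 0.48 and -0.31 to 0.29, leave room for changes of either sign. The median of the disaccharidases and peptidases was -0.34 without Con-FMT replicate 1 and -0.17 without Con-FMT replicate 2, and that of fat uptake was -0.21 without Con-FMT replicate 1, -0.07 without Con-FMT replicate 2 and -0.08 without Con-FMT replicate 3.

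**Figure D3:**
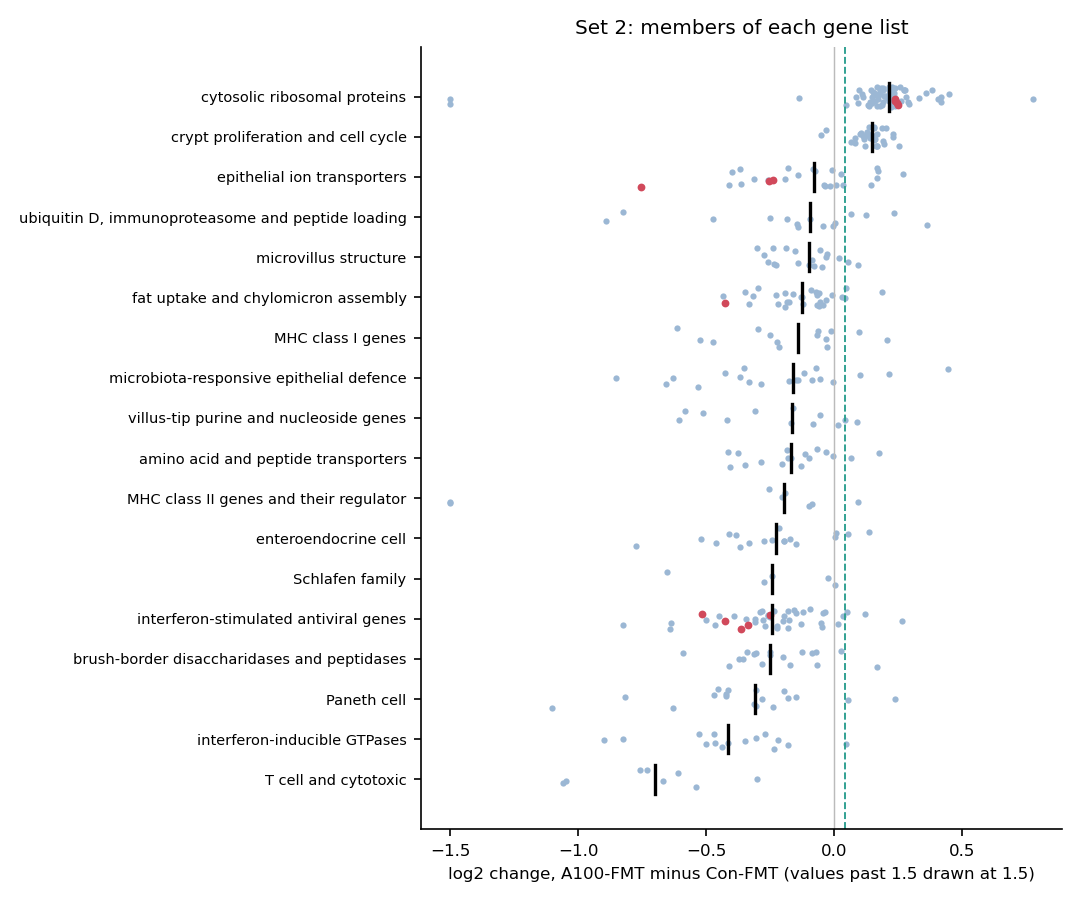
Log2 difference between A100-FMT and Con-FMT in set 2 (x axis) for the tested members of 18 gene lists (rows), with 1 point per gene, red where the gene had an adjusted p under 0.05, and a black bar at the median of the list. The solid grey line is 0 and the dashed green line the median of all tested genes, 0.04; 4 members beyond 1.5 are drawn at the edge. Only crypt proliferation and ribosomal protein genes have medians right of the green line.

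Enteroendocrine genes, which encode gut hormones and the proteins that store them, were lower in 14 of 18 tested members (median log2 difference -0.23), in 8 without overlap (44.4%, against 6.5% of all tested genes), with no gene past the threshold in limma (8 with an unadjusted p under 0.05). Nts, the peptide neurotensin, was at 13.3, 17.2 and 14.4 FPKM in Con-FMT and 7.42, 11.7 and 6.45 FPKM in A100-FMT (limma adjusted p = 0.0834). Gip, the incretin of the upper intestine, was at 96.9, 96.8 and 109 FPKM in Con-FMT and 49.1, 91.9 and 85.5 FPKM in A100-FMT (limma adjusted p = 0.227). Both were lower in every A100-FMT mouse, though A100-FMT replicate 2 came close to the controls for Gip. Goblet cell genes were divided, 8 lower and 10 higher of 18, with Muc13, a membrane mucin, at 1409, 1466 and 1511 FPKM in Con-FMT and 1128, 1298 and 1057 FPKM in A100-FMT, and Clca1, a secreted protein of mucus, at 534, 608 and 571 FPKM in Con-FMT and 431, 510.1 and 366 FPKM in A100-FMT (limma adjusted p = 0.103 and 0.11).

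The genes that rose most were of mixed function. Nrtn, neurturin, a growth factor that binds a receptor of enteric neurons (GRCm38, chr17:56751323-56757548), was at 4.38, 3.94 and 4.52 FPKM in Con-FMT and 6.38, 7.13 and 7.80 FPKM in A100-FMT. Hmgn5, a protein that binds nucleosomes (chrX:109004537-109013380), was at 26.02, 24.7 and 24.6 FPKM in Con-FMT and 36.4, 35.5 and 41.7 FPKM in A100-FMT. Pemt, which makes phosphatidylcholine by methylation, was at 3.46, 3.76 and 3.26 FPKM in Con-FMT and 5.47, 5.05 and 4.85 FPKM in A100-FMT. In all 3 the lowest A100-FMT mouse exceeded the highest Con-FMT mouse, and the genes rose by 53.2%, 48.7% and 36.3% (limma adjusted p = 0.0366, 0.0366 and 0.0269). Pfkl, the liver-type phosphofructokinase of glycolysis, increased by 30.2%, from 31.4, 26.8 and 28.03 FPKM to 36.2, 36.4 and 40.5 FPKM. Mnd1 and Rad1, proteins of recombination and of the DNA damage checkpoint, increased by 33.3% and 32.1%, Pdcd2l, of ribosome biogenesis, by 32%, and Ppig, a peptidyl-prolyl isomerase of splicing, by 29.2%. Upf3b, a factor of nonsense-mediated mRNA decay, increased by 28.2% and Wdr31, a WD-repeat protein gene, by 29.4%.

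Several of the smaller increases were in genes of ribosomes and translation, and the genes in this paragraph were picked after their values were seen. Among 76 tested genes of cytosolic ribosomal proteins 73 were higher after A100-FMT, 54 (71%, against 16.1% of all tested genes) without overlap, with a median log2 difference of 0.21. Rplp0, of the ribosomal stalk, was at 1373, 1299 and 1348 FPKM in Con-FMT and 1516, 1634 and 1583 FPKM in A100-FMT. Rpl4 was at 891, 837 and 882 FPKM in Con-FMT and 1030.5, 1008 and 1037 FPKM in A100-FMT. Rpl12 was at 1223, 1172 and 1237 FPKM in Con-FMT and 1381, 1433 and 1498 FPKM in A100-FMT. Together with Rpl36a these rose, by 17.7%, 17.8%, 18.7% and 18.4% (limma adjusted p = 0.0448, 0.0366, 0.0486 and 0.0486), and the list summed to 51040.0 to 54540.0 FPKM in Con-FMT and 57500.0 to 63260.0 FPKM in A100-FMT. Rpl26 went the other way, at 497, 269 and 4.50 FPKM in Con-FMT and 3.09, 3.84 and 3.90 FPKM in A100-FMT, and so did Rps28, at 119.8, 508 and 18.2 FPKM in Con-FMT and 4.50, 6.49 and 2.08 FPKM in A100-FMT, neither of which passed (limma adjusted p = 0.191 and 0.206). Ribosomal protein genes have many processed pseudogenes of nearly the same sequence, and how reads were divided among the copies was not tested. The initiation factor genes Eif3f and Eif5b, Ubtf and Brf1, which serve transcription by RNA polymerases I and III, Rrp8 and Exosc5, of rRNA processing, Kti12, of tRNA modification, and Upf1, of mRNA decay, rose as well, by 14.5% (Upf1) to 24.1% (Eif5b) with an adjusted p of 0.0269 to 0.0448 in limma. With quantile normalization the median of the ribosomal list was 0.14.

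Crypt proliferation and cell cycle genes were higher in 30 of 32 tested members, 11 of them (34.4%, against 16.1%) without overlap, and none passed (9 with an unadjusted p under 0.05 in limma). The median log2 difference was 0.15. Pcna, the sliding clamp of replication, was at 163, 146 and 168 FPKM in Con-FMT and 174, 165 and 172 FPKM in A100-FMT. E2f1, a factor that starts the S phase, was at 4.62, 4.22 and 5.13 FPKM in Con-FMT and 5.64, 5.58 and 5.95 FPKM in A100-FMT. Cdc6, which licenses origins, was at 7.79, 6.70 and 6.88 FPKM in Con-FMT and 8.39, 8.96 and 8.21 FPKM in A100-FMT. The groups overlapped for Pcna and stood apart for E2f1 and Cdc6 (limma adjusted p = 0.338, 0.0782 and 0.116). Hes1, the Notch target that directs progenitors to the absorptive fate, rose by 22.3%, from 36.8, 35.6 and 41.1 FPKM in Con-FMT to 45.8, 47.9 and 45.5 FPKM in A100-FMT (limma adjusted p = 0.0486). It was the only gene that passed among 24 tested stem cell and Notch genes, 16 of them higher. Of all tested genes 0.423% rose at this threshold. Sox4, a factor of progenitor cells, was higher in every A100-FMT library at 10.9, 12.2 and 9.99 FPKM against 7.22, 6.86 and 9.92 FPKM, without passing (limma adjusted p = 0.0869). The study reported the proteins SOX4, GATA4 and KLF7 as highest in A100-FMT. The RNA of Gata4 and Klf7 had log2 differences of -0.03 and -0.11.

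Among the genes of cell junctions are several whose proteins the study measured. It reported higher levels of these proteins after A100-FMT than after Con-FMT, whereas the values here are of RNA. Tjp1, which encodes ZO-1, was at 19.9, 20.2 and 20.7 FPKM in Con-FMT and 23.6, 18.2 and 18.9 FPKM in A100-FMT. Cdh1, which encodes E-cadherin, was at 247, 249.5 and 234 FPKM in Con-FMT and 248, 234 and 219 FPKM in A100-FMT. Ocln, occludin, was at 31.4, 35.6 and 35.4 FPKM in Con-FMT and 36.3, 32.2 and 32.2 FPKM in A100-FMT. The groups overlapped in all 3, and the 95% intervals of the log2 differences were -0.19 to 0.17, -0.17 to 0.04 and -0.16 to 0.12. Of 18 tested tight junction genes 13 were lower and 5 higher, with log2 differences of -0.31 to 0.10, and 5 (27.8%, against 6.5% of all tested genes) were lower without overlap, among them Cxadr, a receptor at the junction, with a log2 difference of -0.18 (limma adjusted p = 0.106). Of 24 genes of adherens junctions and desmosomes 9 were lower and 15 higher, and none of them passed (3 of each list had an unadjusted p under 0.05 in limma). Gja4, which encodes connexin 37, and Cldn1, which encodes claudin 1, were at no more than 0.11 and 0.02 FPKM in any of the 6 libraries and were not tested. The study does not say which claudin it measured, so Cldn1 may not be the gene of that protein. Actb, beta-actin, was at 1227, 1284 and 1273 FPKM in Con-FMT and 1298, 1268 and 1221 FPKM in A100-FMT, with a log2 difference of 0.00 whose sign depended on the scaling.

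The differences of set 2 were mostly not those of set 1, in which the same 2 treatments had 3 other libraries each. Of the 82 genes, 32 (39%) had the same sign in set 1, beside 45.7% of all 11298 genes tested in both sets, and 2 passed there in the same direction, Pla2g2f and Upf3b. Fam214b, picked after its values were seen, passed in both sets in opposite directions, with log2 differences of -0.34 in set 2 and 0.33 in set 1. At an unadjusted p under 0.05 in set 1, 5 of the 82 had the same direction and 8 the other. In set 1 itself 102 genes passed (0.899%), 69 higher and 33 lower. The sets did not share libraries, and a test of the difference between their effects passed for 107 genes (0.943%), of which 22 were among the 82. This test used the same set 2 values that had selected the 82 genes, so those genes were favoured in it. Apob had a log2 difference of -0.43 in set 2 and 0.26 in set 1, where the values were 97.2, 94.2 and 121 FPKM in Con-FMT and 129, 123 and 122 FPKM in A100-FMT (interaction adjusted p = 0.0421 in limma). Dusp6 had -0.66 in set 2 and 0.35 in set 1 (interaction adjusted p = 0.0364 in limma), and Parp14 -0.34 and 0.14 (interaction adjusted p = 0.0364 in limma). For Slc9a3, at -0.76 in set 2 and 0.14 in set 1, the difference between the sets just missed the threshold (interaction adjusted p = 0.0552 in limma). The number of genes with a difference between the sets was 0 to 453 when single libraries were left out, being 0 without Con-FMT replicate 2 or A100-FMT replicate 1 of set 2 and without Con-FMT replicate 2, A100-FMT replicate 1 or A100-FMT replicate 2 of set 1, and 453 without Con-FMT replicate 1 of set 2.

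**Figure D4:**
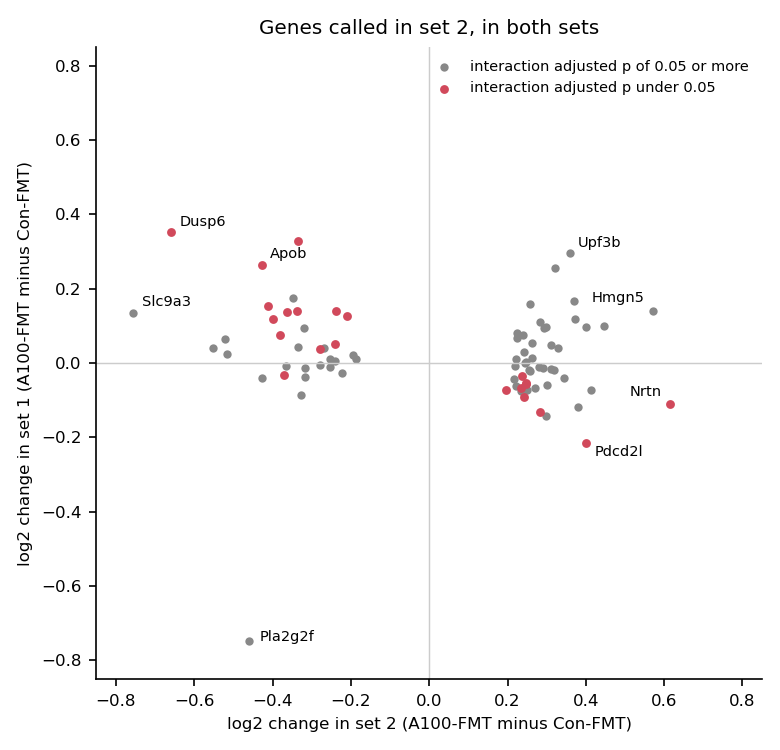
Each point is 1 of the 82 genes that passed in set 2, with its log2 difference between A100-FMT and Con-FMT in set 2 (x axis) and in set 1 (y axis); red points had an adjusted p under 0.05 for the difference between the sets. Points left of and below 0 or right of and above 0 on both axes, 32 in all, had the same direction in both sets.

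Gene groups differed between the sets in the same manner, as counts without a test. The interferon-stimulated antiviral genes, 39 of 44 lower in set 2, were 24 higher and 20 lower in set 1 with a median log2 difference of 0.02, and the GTPases had a median of -0.10 there. Disaccharidases and peptidases were higher in set 1 in 16 of 18 genes and fat uptake genes in 28 of 30, where set 2 had 2 and 4 higher. Crypt proliferation genes were lower in set 1 in 28 of 32 genes, where set 2 had 2 lower, and ribosomal protein genes were divided into 38 higher and 38 lower. In both sets alike, T cell and cytotoxic markers were lower in all 8 tested genes, with medians of -0.70 and -0.27, Paneth cell genes in 16 of 18, with medians of -0.31 and -1.06, and enteroendocrine genes in 14 and 15 of 18, with medians of -0.23 and -0.32. Anpep, lower without overlap in set 2, was at 1519.9, 1497 and 1587 FPKM in Con-FMT and 1654, 1664 and 1516 FPKM in A100-FMT of set 1 and overlapped there (log2 difference 0.07). The test of the difference between the sets was passed by 4 crypt proliferation genes (Mcm2, Mcm5, Mcm7 and Cdc6), 2 of fat uptake (Apob and Sar1b), 2 of ribosomal proteins (Rplp0 and Rpl4), 2 of enteroendocrine cells (Chgb and Insm1), 1 interferon-stimulated gene (Parp14) and 1 peptidase (Mep1b), named here because they passed, and by no GTPase, T cell or Paneth cell gene. Mep1b, a brush-border metalloprotease, had log2 differences of -0.25 in set 2 and 0.30 in set 1 (interaction adjusted p = 0.0415 in limma). Muc13, of the goblet cell list, had -0.34 and 0.22 (interaction adjusted p = 0.0364 in limma).

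**Figure D5:**
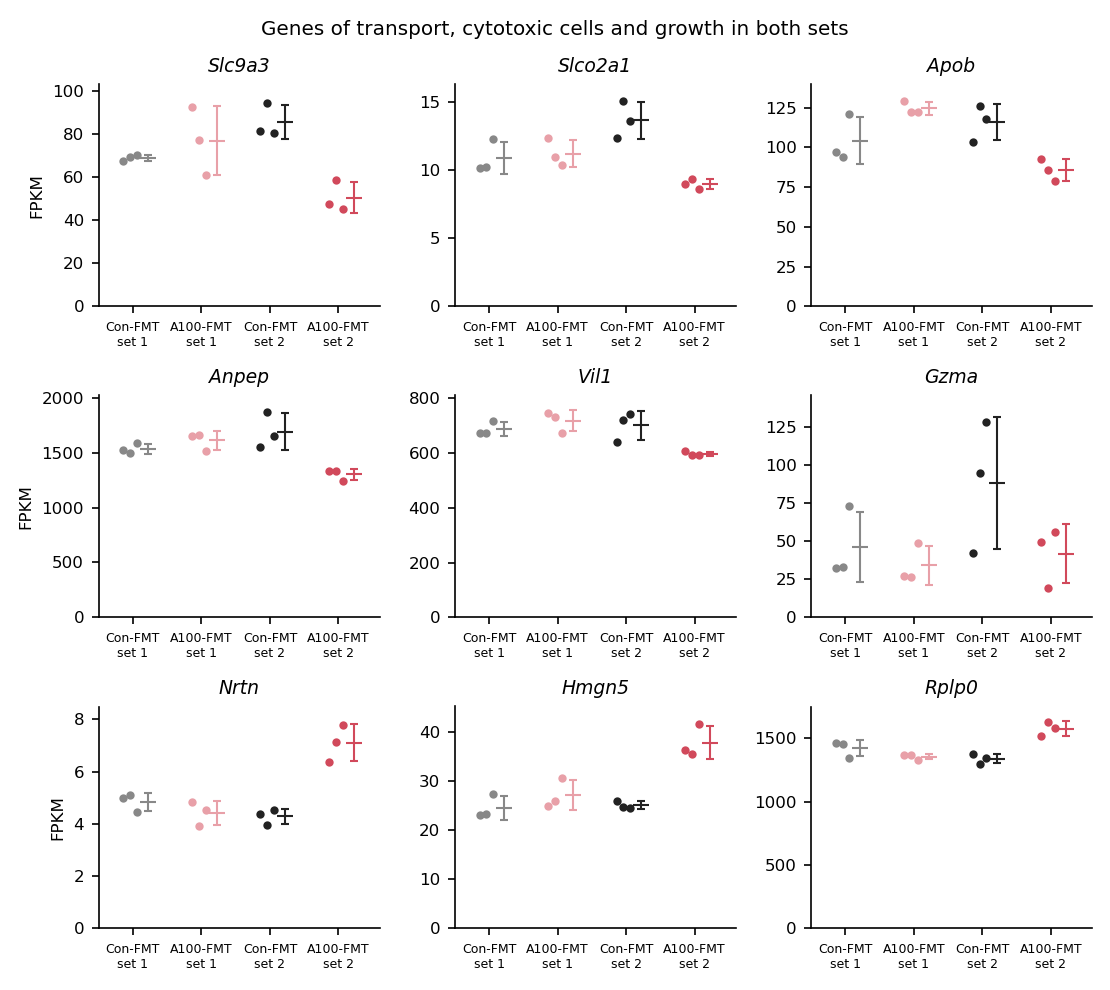
FPKM of 9 genes (y axes, from 0) in Con-FMT and A100-FMT of set 1 and set 2; points are single libraries, and the dash with its bar is the mean and SD of 3 libraries. Slc9a3, Slco2a1, Apob, Anpep and Vil1 are lower and Nrtn, Hmgn5 and Rplp0 higher in all A100-FMT libraries of set 2, Gzma overlaps, and the set 1 groups do not show the same separation.

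Larger ratios were found in genes that did not pass the test. With 1 FPKM added to both group means, a ratio of 2 or more was reached by 29 genes upwards and by 42 downwards after A100-FMT, and in 13 and 15 of these the groups did not overlap. They included H2-DMb1, Mptx2, Rpl26 and Rps28, named above, and none was among the 82 genes that passed. Without Con-FMT replicate 3 the count of genes at least 2-fold higher was 53. The counts without overlap were 24, 23 and 22 on the higher side without Con-FMT replicate 1, Con-FMT replicate 2 and A100-FMT replicate 2, and 31, 31, 26 and 33 on the lower side without Con-FMT replicate 1, Con-FMT replicate 3, A100-FMT replicate 1 and A100-FMT replicate 2. Groups with fewer libraries meet the condition of no overlap more easily, so these counts are not on the same footing as those of all 6. Of 22 tested genes of endoplasmic reticulum stress and heat shock 16 were higher and 6 lower, with a median log2 difference of 0.03 beside 0.04 over all genes, 4 (18.2%, against 16.1%) were higher without overlap, and none passed (3 with an unadjusted p under 0.05 in limma). The 2 most changed were Hspa8, a constitutive chaperone, at 474, 494 and 578 FPKM in Con-FMT and 581, 789.7 and 790.2 FPKM in A100-FMT, and Hsph1, its exchange factor, at 26.7, 20.9 and 47.6 FPKM and 43.4, 57.1 and 47.3 FPKM (limma adjusted p = 0.12 and 0.173). The groups stood apart for Hspa8 and overlapped for Hsph1. Per2, a clock gene whose level follows the time of day, was at 2.38, 2.04 and 3.02 FPKM in Con-FMT and 3.38, 4.43 and 3.84 FPKM in A100-FMT, higher in every mouse without passing (limma adjusted p = 0.14).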

How the data were processed

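Total RNA of the small intestine was isolated by the authors with TRIzol and sequenced on an Illumina HiSeq, and the submitters' processing notes name the mouse build mm10. The deposited table holds FPKM values, with 2 decimals and 19215 entries for 23 libraries; the authors' methods speak of RPKM and of DEGseq on read numbers, which were not used here. An aligner and counter are not given in the sources used here. Of the 17842 entries with an NCBI Gene number, 17736 were matched to a symbol, and 1 column of per-library values was not used. Read depth is unknown; the spacing of low FPKM values in 2 to 7 genes per library put the depth of the 6 libraries compared at 0.982 to 1.05 times the median library. The table's FPKM summed to 570300 to 596300 per library.

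Genes were tested where their mean in the 12 libraries of set 2 reached 1 FPKM (11351; 7864 were not). A linear model with 1 mean for each of the 4 groups was fitted to log2(FPKM + 1) with limma 3.58.1 in R 4.3.3 (eBayes with trend), and p-values were two-sided and adjusted with the Benjamini-Hochberg method, with a threshold of 0.05. The other groups of set 2 served to estimate the spread. The difference between sets was an interaction over the 18 libraries of the FMT groups of both sets. An exact permutation test with 3 against 3 cannot go below 0.1 and was not used. The method was tested on simulated data. Tables and figures were made with Python 3.11.15, pandas 2.3.3 and matplotlib 3.10.9, and promoters and gene positions came from RefSeq on GRCm38.p6.

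The comparison and the 53 gene lists were chosen with earlier results of these data known, and the list of ribosomal protein genes was added after seeing these values. Lists are described by counts and medians, with no test. Genes were named when they had one of the 10 largest changes in a direction, were among the 3 highest or the 2 most changed members of a list, passed as a list member, or encode a protein that the study measured; names outside this rule are marked. Alternatives were a pseudocount of 0.1, other filters on low values, 2 other scalings, other samples in the fit, array quality weights, a replicate block, an adjustment for GC content and length, and leaving out each library. Some genes of the lists are not reported here by name.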

Additional observations from a re-analysis of the deposited data

Results flagged for a closer look

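The effect of A100-FMT against Con-FMT was compared between the sets by an interaction term, fitted with limma over all genes. It differed for 20 of the genes named for set 2 that are listed here (limma adjusted p of 0.0364 to 0.0446). Fam214b, Mcm2, Mcm5, Mcm7, Sar1b and Insm1, named above after their values were seen, passed as well and are not listed. The test reuses the set 2 values for which many of these genes were named. The values here are the log2 effect of set 2 minus that of set 1. Among genes lower in set 2, it was -1.01 for Dusp6 (-0.66 in set 2 and 0.35 in set 1), -0.84 for H2-Q1 and -0.69 for Apob. It was -0.56 for Emp1 and for Muc13, -0.55 for Mep1b, -0.52 for Tmem236 and -0.50 for Heph. For the interferon-stimulated genes Parp14 and Parp12 it was -0.48 and -0.34, and for Slc7a7, a basolateral amino acid transporter, -0.41. Chgb, a granule protein of enteroendocrine cells, had 0.68, being lower in both sets, by 0.15 in set 2 and 0.83 in set 1 on the log2 scale (that is, -0.15 and -0.83).

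Among genes higher in set 2, the difference between the sets was 0.73 for Nrtn (0.62 in set 2 and -0.11 in set 1), 0.62 for Pdcd2l, 0.51 for Cdc6 and 0.41 for Kti12. It was 0.30 for Eif3f and Rplp0 and 0.27 for Upf1 and Rpl4. The sets also differ in whatever their codes stand for, which no source used here explains, and treatment effects that depend on the set cannot be told apart from differences in handling of the sets. Without Con-FMT replicate 2 of set 2 no gene passed this test in limma (1757 had an unadjusted p under 0.05).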

How the results depend on the processing

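The counts rested on the spread that was assumed. With limma, 0 genes passed in a fit of the 6 libraries, 0 in a fit of all 23 and 0 with a replicate block (1570 higher and 671 lower at an unadjusted p under 0.05). In their deviations from the group means, same-numbered libraries correlated at 0.327, 0.195 and 0.0804. Differently numbered libraries of the 2 groups correlated at -0.338 to 0.171. Whether the numbers pair the libraries is not stated by the labels and was not tested. Counts of genes that rose and fell were 21 and 18 with all genes above 0, 135 and 80 with a mean of at least 5 FPKM, 141 and 78 with array quality weights, 24 and 43 with quantile normalization, 13 and 33 with trimmed-mean scaling, 31 and 59 with GC content and length adjusted, and 0 to 115 and 0 to 85 with 1 library left out. The direction of all 82 genes was kept in each alternative that tested them. Only the other scalings and the adjustment for GC content and length could have changed it, since the values of these genes did not overlap. The interaction passed for 0 genes over all 23 libraries (1483 at an unadjusted p under 0.05) and for 0 with a replicate block (2375), and for 0 to 453 with 1 library left out. At a ratio of 1.5 in place of 2, 92 genes were higher and 119 lower, 43 and 49 without overlap; at a pseudocount of 0.1, 52 were higher, 25 without overlap; with 1 library left out, 29 to 53 were higher and 42 to 63 lower, 17 to 24 and 18 to 33 without overlap. With 1 library left out the condition of no overlap is easier to meet. Of the list medians, that of the GTPases was -0.41 with all libraries and -0.23 without Con-FMT replicate 1 of set 2, and that of the ribosomal genes 0.14 with quantile normalization. Genes near 0 changed sign with 1 library left out, namely Fabp1 (-0.134 to 0.0764), Apoa1 (-0.0725 to 0.166), Tjp1 (-0.118 to 0.0577), Ctnnd1 (-0.123 to 0.0182), Ocln (-0.0809 to 0.00692), Gata4 (-0.0865 to 0.00871), Klf7 (-0.198 to 0.0127) and Actb (-0.0190 to 0.0249), and Actb also with quantile normalization (-0.0962), trimmed-mean scaling (-0.035), array quality weights (-0.00466) and GC content and length adjusted (-0.0322). The cause was not tested. Depth is unknown, and a gene at 0 FPKM has no stated limit.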
